A study of Homo sapiens with 24 samples.

Results

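The angiopoietin and VEGF ligands are 7 secreted factors, ANGPT1, ANGPT2, ANGPTL4, VEGFA, VEGFB, VEGFC and PGF, and they are described here over 2 breast cancer cell lines, 2 treatments and 2 sorted fractions. They are 7 of the 22395 named genes measured. Each was read from the probe set that names only that gene and has the highest mean over the 24 arrays. All 7 genes had exactly 1 such probe set, so the mean decided nothing between probe sets. The genes were chosen by function, with results of these data already known. The values that entered the choice were the mean signals over the arrays and, as a result known beforehand, the lower ANGPT1 signal of T47D Aldefluor+ cells, which is therefore given as a description.

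The angiopoietins act on TEK, a receptor tyrosine kinase of endothelial cells. ANGPT1 activates it and stabilises vessels, and ANGPT2 can oppose ANGPT1 at the same receptor. ANGPTL4 resembles them in sequence but is best known as an inhibitor of lipoprotein lipase, and its gene is induced by PPAR and by hypoxia factors. VEGFA drives vessel growth through KDR and also binds FLT1, which is the receptor of VEGFB and PGF. VEGFC acts mainly through FLT4 on lymphatic vessels. Tumour cells are a known source of such ligands, whereas the receptors belong largely to endothelial cells.

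The triple-negative line SUM159 has a mesenchymal character, and the luminal line T47D carries hormone receptors. Both received ID8, a small molecule, at 5 µM or its vehicle DMSO for 72 h, and were then stained with Aldefluor, a reagent that fluoresces in cells with high aldehyde dehydrogenase activity. Cells above the gate, which was set on cells with the inhibitor DEAB, formed the Aldefluor+ fraction and the others the Aldefluor- fraction. The 8 groups were thus DMSO Aldefluor+, DMSO Aldefluor-, ID8 Aldefluor+ and ID8 Aldefluor- cells of each line, with 3 arrays per group, 1 from each of the experiments 2, 3 and 4 of SUM159 and 5, 6 and 7 of T47D. Each experiment pooled the cells of 3 flasks per treatment, and the lines were grown in different media, with insulin and hydrocortisone for SUM159 only. The model is cultured tumour cells alone, with no vessels or stroma.

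Values are log2 signals, and per the design text batch effects were accounted for by the authors. The mean signals of the lines differed by at most 1.18 for any gene and at most 0.343 for the 7 ligands, and because of the batch step levels are not compared between lines. Each of the 5 markers of SUM159 and the 7 markers of T47D still had the higher mean in its own line. The gap was smallest for KRT8, at 3.16 in T47D and 3.07 in SUM159. It was less than the SD of KRT8 over the arrays of either line, 0.46 and 0.30. ALDH1A1, an aldehyde dehydrogenase, was 2.91 ± 0.12 (SE) higher in the Aldefluor+ cells of SUM159, whereas in T47D the difference was 0.09 ± 0.12. For ALDH1A3, the other aldehyde dehydrogenase read, it was 0.08 ± 0.14 in SUM159 (limma adjusted p = 0.930). In T47D the ALDH1A3 difference was 0.42 ± 0.14, higher in 3 of 3 experiments, and was not called (limma adjusted p = 0.226). The interquartile range of an array was 2.05 in the SUM159 DMSO Aldefluor+ array of experiment 4 and between 2.17 and 2.33 in the other arrays. Of all genes, 49.0% had a mean below 2, where signal over background is small. ANGPTL4, with a mean of 1.87 over all arrays, and PGF, with a mean of 1.61, lay in that range. ANGPT1 at 2.05 and ANGPT2 at 2.17 lay just above it, while VEGFA at 4.54, VEGFC at 4.00 and VEGFB at 3.92 were well above it. These means belong to different probe sets and give no order between the genes.

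ANGPT1 was the ligand that differed most, and it did so in T47D. Its signal was lower in Aldefluor+ than in Aldefluor- cells, and ID8 lowered it further. In T47D cells with DMSO, the Aldefluor- arrays read 3.40, 2.89 and 2.93 and the Aldefluor+ arrays 1.66, 1.93 and 2.05, in the order of the experiments. With ID8, the Aldefluor- arrays read 2.30, 2.63 and 2.61 and the Aldefluor+ arrays 1.09, 1.04 and 0.98. No array of any of these 4 groups overlapped with another group, and a lower Aldefluor+ fraction without overlap was seen for 9.65% of all genes with DMSO and for 10.1% with ID8. The group means were 3.08 ± 0.28 in DMSO Aldefluor- cells, 2.51 ± 0.19 in ID8 Aldefluor- cells, 1.88 ± 0.20 in DMSO Aldefluor+ cells and 1.03 ± 0.05 in ID8 Aldefluor+ cells (SD, n = 3 each). The means of both Aldefluor+ groups thus lay in the range of low signal, where a log2 difference can understate a change.

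**Figure D1:**
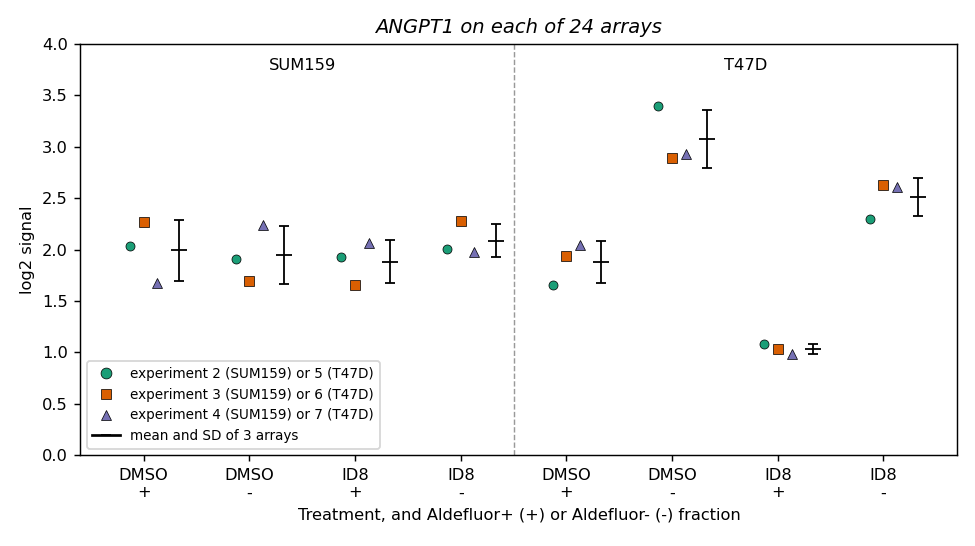
ANGPT1 log2 signal (vertical axis) of every array by group (horizontal axis), with SUM159 and T47D side by side. Points are arrays, and the bars give the group mean and SD of 3 arrays. The T47D groups step down from 3.08 to 1.03 with no overlap, while the SUM159 group means lie between 1.88 and 2.09.

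The difference between the fractions of T47D was seen with either treatment. Aldefluor+ cells were lower in ANGPT1 by 1.20 ± 0.20 with DMSO, which is 2.29-fold, and by 1.48 ± 0.20 with ID8, which is 2.78-fold (log2 difference ± SE, n = 3 per group). Averaged over both treatments the difference was -1.34 ± 0.14, or 2.52-fold. It was lower in 3 of 3 experiments, with values from -1.48 to -1.26. For reference, 0.875% of all genes passed the threshold in the averaged comparison, 0.152% with DMSO alone and 0.366% with ID8 alone. ANGPT1 was 1 of them in each, and nothing is read from this, since its difference was known when the genes were chosen. In sorted bulk samples, fewer cells that express a gene and less RNA per cell cannot be told apart.

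ID8 lowered ANGPT1 in T47D cells. Averaged over the fractions the signal fell by 0.70 ± 0.14 (SE), from 2.48 with DMSO to 1.77 with ID8, which is 1.63-fold (limma, Benjamini-Hochberg adjusted p = 0.0379, 95% interval -1.004 to -0.406). It was lower with ID8 in 3 of 3 experiments, by -0.84, -0.70 and -0.58. ANGPT1 was the 1 of 7 ligands called in this comparison, in which 0.505% of all genes were called. The call was lost when any 1 experiment was left out, with -0.64 and an adjusted p of 0.240 without experiment 5, -0.77 and 0.248 without experiment 6, and -0.71 and 0.236 without experiment 7. Over all alternatives the limma adjusted p ran from 0.0035 to 0.248.

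Taken by fraction, the ANGPT1 difference with ID8 did not pass the threshold in either. In Aldefluor+ cells it was -0.85 ± 0.20, or 1.80-fold (limma adjusted p = 0.0939). The DMSO and ID8 arrays did not overlap there, as was so in the same direction for 10.7% of all genes. In Aldefluor- cells it was -0.56 ± 0.20, or 1.48-fold (limma adjusted p = 0.642), again with no overlap, as for 8.15% of all genes. The difference between these 2 effects was -0.28 ± 0.28, with a 95% interval of -0.88 to 0.32 (limma adjusted p = 0.951). Without the experiment as a block, the Aldefluor+ difference had an adjusted p of 0.0144, which may be too small because arrays of 1 experiment deviated against each other, as after a removal of experiment means; over all alternatives it ran from 0.0144 to 0.441.

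In SUM159 the ANGPT1 arrays of all groups overlapped. The group means lay between 1.88 and 2.09, in or near the range of low signal, where a missing difference shows little. They read 2.03, 2.27 and 1.68 in DMSO Aldefluor+ cells and 1.91, 1.69 and 2.24 in DMSO Aldefluor- cells. With ID8 they read 1.93, 1.65 and 2.06 in Aldefluor+ cells and 2.01, 2.28 and 1.98 in Aldefluor- cells. The averaged ID8 difference was 0.01 ± 0.14 (limma adjusted p = 0.987, 95% interval -0.29 to 0.31). The averaged fraction difference was -0.08 ± 0.14 (limma adjusted p = 0.930, 95% interval -0.38 to 0.22). The ID8 effect in SUM159 minus that in T47D was 0.72 ± 0.20, which did not pass the threshold (limma adjusted p = 0.134), so the fall in T47D was not shown to differ from the value in SUM159. The fraction difference of SUM159 minus that of T47D was 1.26 ± 0.20 and is given as a description.

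Markers of endothelial cells, a cell type that a sorted line should lack, were read beside this result. Of 10 listed, 8 were measured, and 5 of these had a mean below 2 in either line. EMCN was lowest, at 0.83 in SUM159 and 0.82 in T47D, and ERG, a transcription factor, was highest, at 3.27 and 3.14. None of the 8 was called in any of the 4 averaged comparisons by limma, where between 0.219% and 0.875% of all genes were called. For ID8 in T47D, 3 of the 8 had an unadjusted p under 0.05, as did 10.9% of all genes. In that comparison the median difference of the 8 was -0.09, with -0.48 for ERG as the lowest and 0.08 for VWF as the highest. The log2 signals summed over the 8 markers ran in T47D from 13.8 to 14.8 in DMSO Aldefluor+, 13.2 to 13.9 in DMSO Aldefluor-, 12.5 to 13.3 in ID8 Aldefluor+ and 12.4 to 13.4 in ID8 Aldefluor- cells. The ID8 sums thus lay below the DMSO sums, without overlap in Aldefluor+ cells and with overlap in Aldefluor- cells, and their part in the ANGPT1 result was not tested. With DMSO the T47D sums ran higher in Aldefluor+ than in Aldefluor- cells, opposite to ANGPT1, with overlapping ranges. In SUM159 with DMSO the sums were also higher in Aldefluor+ cells, 13.4 to 15.1 against 12.5 to 13.1, without overlap. With ID8 the SUM159 sums ran from 12.9 to 14.4 in Aldefluor+ and from 12.9 to 13.9 in Aldefluor- cells.

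The genes whose values ran most like ANGPT1 over the 12 arrays of T47D were, by Pearson's r among 11425 genes with a mean of at least 2, SNRNP48 with 0.977, DCPH1 with 0.976 and ABCA12 with 0.974. SNRNP48 is a protein of the minor spliceosome and ABCA12 a lipid transporter. Group means of ABCA12 in T47D were 4.94 in DMSO Aldefluor-, 4.28 in ID8 Aldefluor-, 3.76 in DMSO Aldefluor+ and 2.86 in ID8 Aldefluor+ cells, the same order as for ANGPT1. Those of SNRNP48 ran from 6.68 in DMSO Aldefluor- to 6.13 in ID8 Aldefluor+ cells, a much narrower range. The 12 arrays share 4 groups and a common batch adjustment, and these correlations describe the arrays only.

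ANGPT2, the partner ligand of ANGPT1 at TEK, did not follow it. In T47D it read 2.38, 1.85 and 2.28 in DMSO Aldefluor+, 1.87, 2.22 and 2.23 in DMSO Aldefluor-, 2.25, 2.20 and 1.79 in ID8 Aldefluor+ and 2.31, 2.42 and 2.42 in ID8 Aldefluor- cells. The ID8 Aldefluor- arrays were the highest group, above all DMSO Aldefluor- arrays, as for 8.38% of all genes, and above all ID8 Aldefluor+ arrays, as for 10.1%. The averaged ID8 difference in T47D was 0.09 ± 0.13 (limma adjusted p = 0.859, 95% interval -0.18 to 0.37) and the averaged fraction difference -0.12 ± 0.13 (limma adjusted p = 0.810, 95% interval -0.39 to 0.15). In SUM159 the group means of ANGPT2 spanned only 0.0996, less than the SE of 0.18 of a difference between 2 groups.

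ANGPTL4 had its largest difference between the fractions of SUM159. With ID8 the Aldefluor+ arrays read 2.57, 1.86 and 1.87 and the Aldefluor- arrays 1.70, 1.34 and 1.56, with no overlap. The difference was 0.57 ± 0.26 (limma adjusted p = 0.641), and arrays were apart in that direction for 7.98% of all genes. With DMSO they read 1.81, 2.36 and 1.98 against 1.41, 1.86 and 2.05, which overlapped. The averaged difference was 0.42 ± 0.18, or 1.34-fold, higher in 3 of 3 experiments, and it did not pass the threshold (limma adjusted p = 0.539, 95% interval 0.03 to 0.81). In T47D the same averaged difference of ANGPTL4 was 0.24 ± 0.18 (limma adjusted p = 0.705). The averaged ID8 differences were -0.10 ± 0.18 in either line. Most of these readings lie below or near 2, where signal over background is small.

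VEGFC had the largest ID8 difference among the VEGF ligands, and averaged over the fractions it had the same sign in both lines, but it passed the threshold in neither. In SUM159 the DMSO Aldefluor- arrays read 4.57, 4.53 and 4.74 and the ID8 Aldefluor- arrays 3.60, 4.12 and 3.94. The DMSO Aldefluor+ arrays read 4.27, 4.40 and 4.08 and the ID8 Aldefluor+ arrays 3.88, 3.78 and 4.18. The DMSO Aldefluor- cells were therefore the highest group and the only one apart from all the other 3. The averaged ID8 difference was -0.51 ± 0.15, or 1.43-fold, lower in 3 of 3 experiments (limma adjusted p = 0.157, 95% interval -0.83 to -0.19). By fraction it was -0.72 ± 0.21 in Aldefluor- cells (limma adjusted p = 0.278), where 9.98% of all genes were also lower without overlap, and -0.30 ± 0.21 in Aldefluor+ cells (limma adjusted p = 0.692). Without the experiment block, with the same doubt about its p, the averaged VEGFC difference had a limma adjusted p of 0.0498, and it ran from 0.0498 to 0.527 over all alternatives.

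In T47D, VEGFC was highest in DMSO Aldefluor+ cells, with 4.24, 4.14 and 4.47. The DMSO Aldefluor- arrays read 3.56, 3.87 and 3.87, the ID8 Aldefluor+ arrays 3.72, 3.66 and 3.60 and the ID8 Aldefluor- arrays 4.08, 3.76 and 3.01. The ID8 Aldefluor- arrays spread widely, with an SD of 0.55 and 3.01 in experiment 7 as the lowest value. The averaged ID8 difference of VEGFC was -0.39 ± 0.15 (limma adjusted p = 0.343, 95% interval -0.70 to -0.07). In Aldefluor+ cells it was -0.62 ± 0.21 (limma adjusted p = 0.277), with no overlap, as in that direction for 10.7% of all genes. In Aldefluor- cells it was -0.15 ± 0.21 (limma adjusted p = 0.967), with -0.86, -0.11 and 0.52 in the 3 experiments, so that ID8 was the higher in 1 of them. Without experiment 7 the averaged value was -0.15 and that of Aldefluor- cells 0.20, and without experiment 5 the averaged value was -0.58. The ID8 effect of SUM159 minus that of T47D was -0.13 ± 0.21, with a 95% interval of -0.58 to 0.32 (limma adjusted p = 0.900). Between the fractions with DMSO, VEGFC did not overlap in either line, and the directions were opposite. Aldefluor+ minus Aldefluor- was -0.36 ± 0.21 in SUM159 (limma adjusted p = 0.722), where 9.35% of all genes were lower without overlap, and 0.52 ± 0.21 in T47D (limma adjusted p = 0.469), where 9.41% were higher without overlap.

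The promoters of VEGFC, with the largest ID8 difference of the VEGF ligands, and of ANGPTL4, with the largest fraction difference in SUM159, are shown for the core motif of hypoxia factors, which are known to induce ANGPTL4. Each line gives the 250 bases before the start of the gene, 5′ to 3′ on the gene's strand, from RefSeq, GRCh38.p14. Capitals mark the core of the hypoxia response element, searched as ACGTG or GCGTG on both strands.
VEGFC, chr4:176792923-176793172, minus strand: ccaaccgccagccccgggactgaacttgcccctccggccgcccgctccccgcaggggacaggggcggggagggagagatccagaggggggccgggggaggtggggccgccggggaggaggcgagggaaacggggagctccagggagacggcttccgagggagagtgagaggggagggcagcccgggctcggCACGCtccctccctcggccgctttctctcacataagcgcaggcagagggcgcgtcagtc
ANGPTL4, chr19:8363905-8364154, plus strand: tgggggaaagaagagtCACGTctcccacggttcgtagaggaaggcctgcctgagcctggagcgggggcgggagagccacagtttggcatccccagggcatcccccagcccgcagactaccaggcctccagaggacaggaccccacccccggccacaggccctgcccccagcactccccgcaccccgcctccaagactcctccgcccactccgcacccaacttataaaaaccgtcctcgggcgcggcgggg
The VEGFC window held 1 match, read as CACGC on the gene's strand, 59 bases before the start. That of ANGPTL4 held 1 match, read as CACGT, 234 bases before the start. Of 35116 RefSeq windows of this length, 43.2% held the core at least 1 time. The ligand windows read were those of VEGFC, VEGFB, PGF and ANGPTL4, 4 of the 7 genes. No window of ANGPT1, ANGPT2 or VEGFA was among them, so nothing is said of their promoters. A match describes letters and shows no binding.

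The 7 genes lie on 6 chromosomes of GRCh38.p14, with VEGFC at chromosome 4, 176683538 to 176792922, ANGPTL4 at chromosome 19, 8364155 to 8374370, VEGFA at chromosome 6, 43770211 to 43786487, VEGFB at chromosome 11, 64234584 to 64239264, and PGF at chromosome 14, 74941830 to 74955764. ANGPT1, at 107249482 to 107497918, and ANGPT2, at 6499632 to 6563245, share chromosome 8. Each value summarises probes along the transcript and does not separate isoforms.

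Within SUM159, VEGFA, the main driver of vessel growth, had its highest group means in ID8 cells. Aldefluor+ arrays read 4.70, 4.52 and 4.24 with DMSO and 4.87, 4.75 and 4.88 with ID8, with no overlap, as in that direction for 9.31% of all genes. Aldefluor- arrays read 4.57, 4.49 and 4.71 with DMSO and 4.79, 4.71 and 4.75 with ID8. The lowest DMSO value, 4.24, belonged to the array with the narrow range of values. Averaged over the fractions, VEGFA differed with ID8 by 0.25 ± 0.12, or 1.19-fold, higher in 3 of 3 experiments, which did not pass the threshold (limma adjusted p = 0.425, 95% interval 0.01 to 0.50). Over all alternatives, the fit without that array included, it ranged from 0.18 to 0.28. In T47D the VEGFA arrays read 4.63, 4.18 and 4.08 in DMSO Aldefluor+, 4.39, 4.46 and 4.40 in DMSO Aldefluor-, 4.11, 4.40 and 4.65 in ID8 Aldefluor+ and 4.52, 4.70 and 4.53 in ID8 Aldefluor- cells. The ID8 and DMSO arrays of Aldefluor- cells did not overlap, as for 8.38% of all genes in that direction. Averaged, the ID8 difference there was 0.13 ± 0.12 (limma adjusted p = 0.756, 95% interval -0.12 to 0.37).

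VEGFB and PGF, both ligands of FLT1, showed no difference past the threshold in any comparison. VEGFB ranged from 3.58 to 4.10 in SUM159 and from 3.48 to 4.46 in T47D. Its averaged differences lay between -0.12 and 0.03 in the 4 averaged comparisons. Its largest value by group was -0.36 ± 0.22 for ID8 in T47D Aldefluor- cells (limma adjusted p = 0.856), lower in 3 of 3 experiments with overlapping arrays. PGF ranged from 1.35 to 2.09 in SUM159 and from 1.15 to 2.18 in T47D, mostly in the range of low signal. In SUM159 with ID8 its Aldefluor+ arrays, at 1.98, 1.71 and 1.74, lay above the Aldefluor- arrays, at 1.42, 1.63 and 1.35, by 0.34 ± 0.27 (limma adjusted p = 0.845), again without overlap as for 7.98% of all genes. Its averaged differences lay between -0.11 and 0.13. The 95% intervals of these averaged differences all held 0 for both genes.

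**Figure D2:**
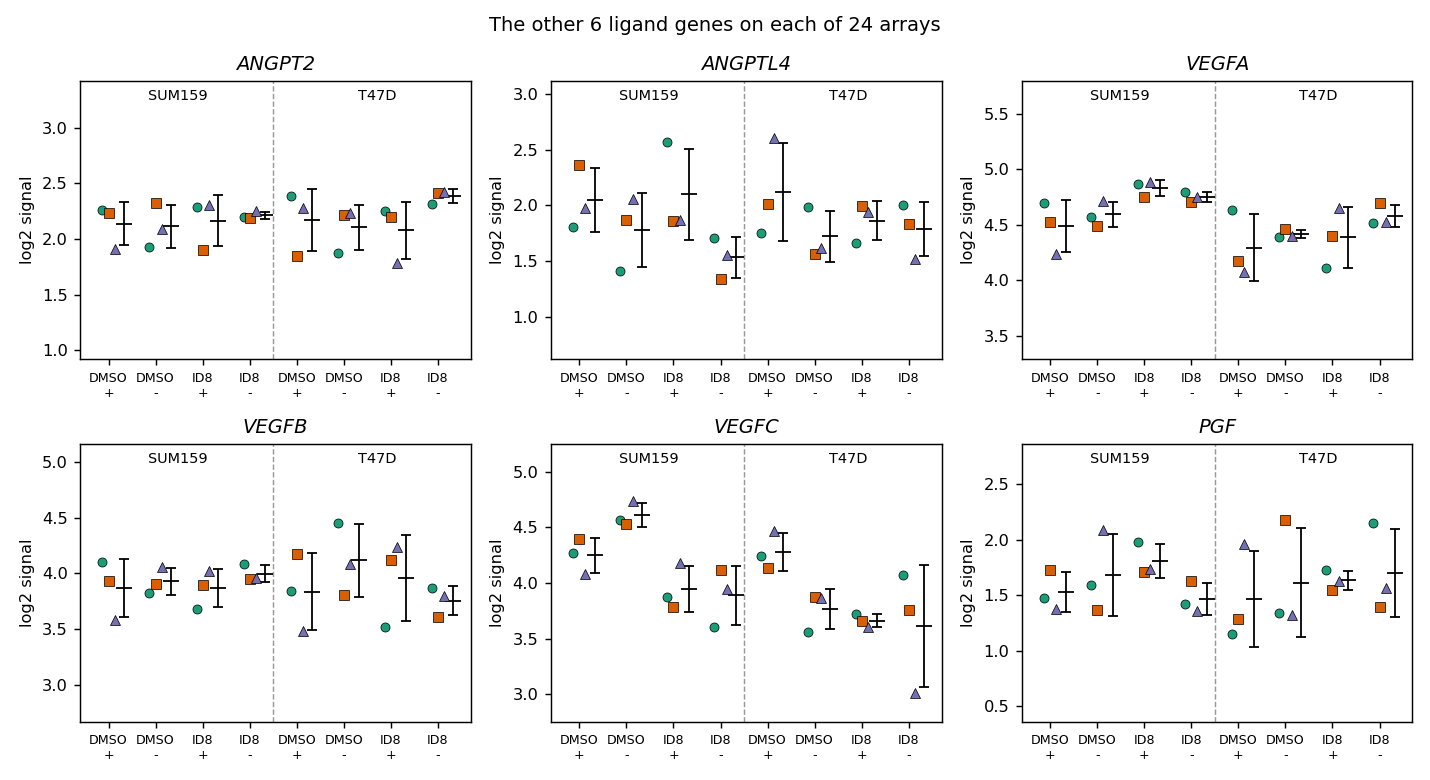
Log2 signal (vertical axis of each panel) of ANGPT2, ANGPTL4, VEGFA, VEGFB, VEGFC and PGF for every array by group (horizontal axis), SUM159 groups beside T47D groups. Points are arrays, and bars give the mean and SD of 3 arrays. VEGFC has a mean of 4.61 in SUM159 DMSO Aldefluor- cells and 3.89 in ID8 Aldefluor- cells, and the arrays of VEGFB overlap between all neighbouring groups of a line.

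**Figure D3:**
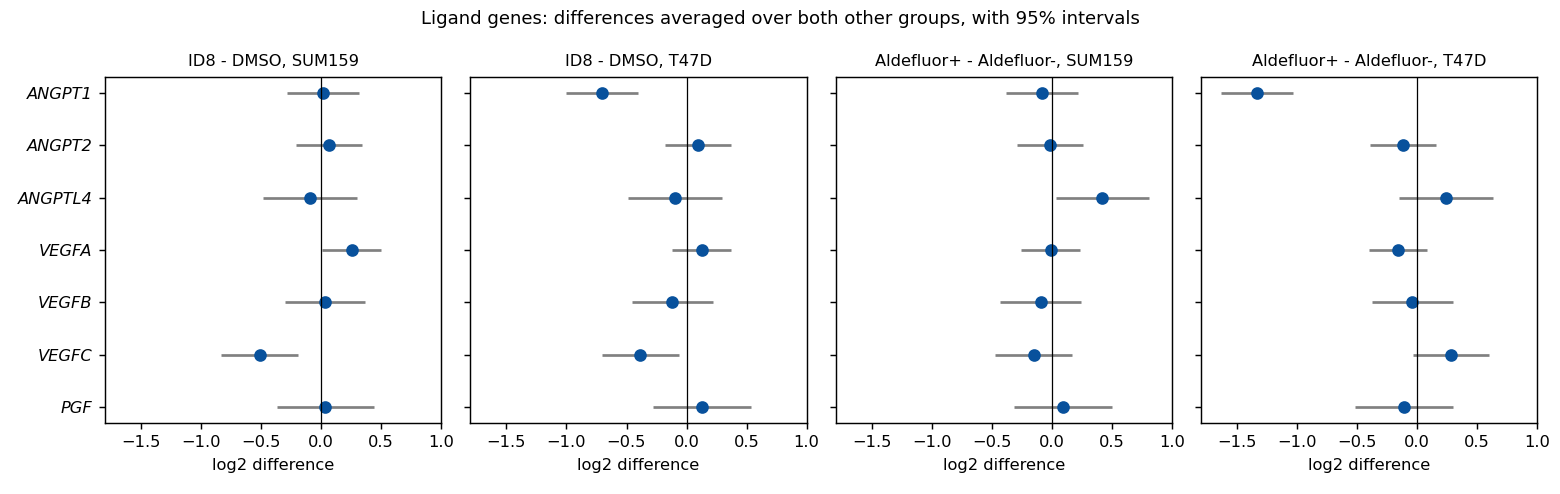
Averaged log2 differences (horizontal axis) of the 7 ligands (rows) for ID8 minus DMSO and Aldefluor+ minus Aldefluor- in each line. Points are estimates and lines 95% intervals. ANGPT1 lies lowest in both T47D panels, at -0.70 and -1.34, and near 0 in both SUM159 panels.

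Counted over the ligands, in T47D 2 of the 7 had an unadjusted p under 0.05 for ID8, against 10.9% of all genes, and 1 for the fractions, against 11.1%. The 1 for the fractions was ANGPT1, whose difference was known when the genes were chosen, and nothing is read from that count. In SUM159, 0 of 7 were called for ID8 by limma, where 0.688% of all genes were called and 2 of the 7 had an unadjusted p under 0.05 against 11.3% of all genes. For the fractions 0 of 7 were called against 0.219% of all genes, and 1 of the 7 had an unadjusted p under 0.05 against 8.46%. The median difference of the 7 was 0.03 for ID8 in SUM159 and -0.10 in T47D, beside -0.01 over all genes in either line. For the fractions it was -0.01 in SUM159 and -0.11 in T47D, beside -0.01 and -0.0025 over all genes. For ID8, 5 of the 7 were above 0 in SUM159 and 3 in T47D, and for the fractions 2 in either line. The calls in T47D were of ANGPT1 alone.

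In the comparisons of single groups, limma called 0 of 7 ligands for ID8 in SUM159 Aldefluor+ cells, against 0.241% of all genes, and 0 in its Aldefluor- cells, against 0.277%. It called 0 for ID8 in T47D Aldefluor+ cells, against 0.375%, and 0 in its Aldefluor- cells, against 0.0179%. Between the fractions of SUM159 it called 0 with DMSO, against 0.0223%, and 0 with ID8, against 0.201%. In these 6 comparisons between 0 and 2 of the 7 ligands had an unadjusted p under 0.05, where between 6.60% and 10.8% of all genes did. For the ID8 effect between the fractions 0 were called in SUM159, against 0.00447%, and 0 in T47D, against 0%, with 0 at an unadjusted p under 0.05 in either, where 7.06% and 5.93% of all genes had one. Between the lines 0 were called for the ID8 effect, against 0.647%, with 1 at an unadjusted p under 0.05, where 10.9% of all genes had one. ANGPT1 passed for the fraction difference, as did 0.478% of all genes, but this restates the T47D difference known when the genes were chosen, and nothing is read from it.

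The receptors were dim. TEK, the receptor of the angiopoietins, had means of 0.80 in SUM159 and 0.79 in T47D, and 5 of the 7 receptors and co-receptors listed were below 2 in either line. NRP1, a co-receptor that tumour cells carry as well, was the brightest probe set, at 5.49 in SUM159 and 4.78 in T47D. None of the 7 was called by limma in the 4 averaged comparisons, and between 0 and 2 had an unadjusted p under 0.05. Over all genes between 0.219% and 0.875% were called there, and between 8.46% and 11.3% had such a p. For the fractions of SUM159 the values ran from -0.21 for NRP1 to 0.41 ± 0.16 for KDR (limma adjusted p = 0.475), and for those of T47D from -0.18 for KDR to 0.29 ± 0.09 for NRP1 (limma adjusted p = 0.176). The 9 other angiopoietin-like and VEGF family genes had 5 measured, 4 of them below 2. Beside the same shares of all genes, 0 of the 5 were called by limma, with at most 1 at an unadjusted p under 0.05 in each averaged comparison.

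Known targets of the factors that induce VEGFA and ANGPTL4 were read next. Of 24 HIF targets 22 were measured, and limma called 0 in the 4 averaged comparisons, with 2 to 4 at an unadjusted p under 0.05. Over all genes between 0.219% and 0.875% were called there, and between 8.46% and 11.3% had such a p. The median ID8 difference of the HIF targets was 0.03 in SUM159 and 0.04 in T47D. In SUM159 they ran from -0.40 for SLC2A1, a glucose transporter, to 0.17 for EGLN3, a prolyl hydroxylase. In T47D they ran from -0.53 for KDM4B, a histone demethylase, to 0.45 for PFKFB3, an activator of glycolysis. Of 11 PPAR targets 9 were measured and, beside the same shares of all genes, 0 were called, with at most 1 at an unadjusted p under 0.05. Their medians ran from -0.03 to 0.07, and for the fractions of SUM159 the values ran from -0.01 for PLIN2, a lipid droplet protein, to 0.79 for FABP4, a fatty acid carrier.

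Among 15 measured of 16 other angiogenic ligands, EFNB2 was the 1 gene called. Over all genes 0.219% were called for the fractions of SUM159, 0.875% for those of T47D and 0.375% for ID8 in T47D Aldefluor+ cells. EFNB2, ephrin-B2, is a membrane ligand that marks arterial endothelium. In SUM159 it was lower in Aldefluor+ cells by 1.04 ± 0.13 (limma adjusted p = 0.00405), with group means of 3.05 against 4.02 with DMSO and 2.44 against 3.54 with ID8. In T47D it was higher in Aldefluor+ cells by 0.67 ± 0.13 (limma adjusted p = 0.0232), with 2.77 against 2.58 with DMSO and 3.85 against 2.70 with ID8. In T47D Aldefluor+ cells, EFNB2 was 1.08 ± 0.19 higher with ID8 (limma adjusted p = 0.0219). Each of these 3 calls was lost when any 1 experiment of the line was left out. The limma adjusted p for EFNB2 was then 0.0558 to 0.0864 for the fractions of SUM159, 0.0825 to 0.259 for those of T47D and 0.107 to 0.294 for ID8 in T47D Aldefluor+ cells, with every difference in the same direction.

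All 12 listed inhibitors of angiogenesis were measured, and limma called 2 of them higher and 0 lower with ID8 in SUM159, where 0.339% of all genes were called higher and 0.348% lower. Between the fractions of T47D it called 0 higher and 1 lower, where 0.505% of all genes were called higher and 0.371% lower. This list, like the others, was chosen with earlier results of these data known, so its counts are a description and nothing is read from them. THBS1, thrombospondin-1, which curbs vessel growth through CD36 and CD47, rose with ID8 in SUM159 Aldefluor- cells by 1.12 ± 0.15, from 7.62 to 8.74 (limma adjusted p = 0.00181). In Aldefluor+ cells the THBS1 difference was -0.06 ± 0.15 (limma adjusted p = 0.941). The test of a difference between these effects of the fractions did not pass the threshold, which only 0.00447% of all genes passed in that test. Averaged over the fractions the THBS1 difference was 0.53 ± 0.10 (limma adjusted p = 0.0225). In T47D THBS1 fell by 0.66 ± 0.10 from Aldefluor- to Aldefluor+ cells (limma adjusted p = 0.00431), with 8.88 against 7.92 with DMSO and 8.10 against 7.75 with ID8. ADAMTS1, a protease with thrombospondin repeats, rose with ID8 in SUM159 by 1.05 ± 0.14, from 1.70 to 2.66 in Aldefluor+ and from 1.15 to 2.28 in Aldefluor- cells (limma adjusted p = 0.00106). TIMP3, a metalloproteinase inhibitor named here after its values were seen, had the largest averaged difference of the list with ID8 in SUM159, at 1.08 ± 0.26, and did not pass (limma adjusted p = 0.0690). The averaged ADAMTS1 call held in all 11 alternatives that included the gene, with a limma adjusted p of at most 0.0297. The filter at a mean of 2 left ADAMTS1 out, and its DMSO means lie in the range of low signal. The THBS1 call in SUM159 Aldefluor- cells was lost without experiment 3 or 4, at 0.0594 and 0.0879, and the averaged one without any 1 experiment, at 0.0806 to 0.221, and, at 0.0616 by limma, without the array of narrow range. The THBS1 call in T47D was lost without experiment 5 or 7, with limma adjusted p of 0.0969 and 0.0924.

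**Figure D4:**
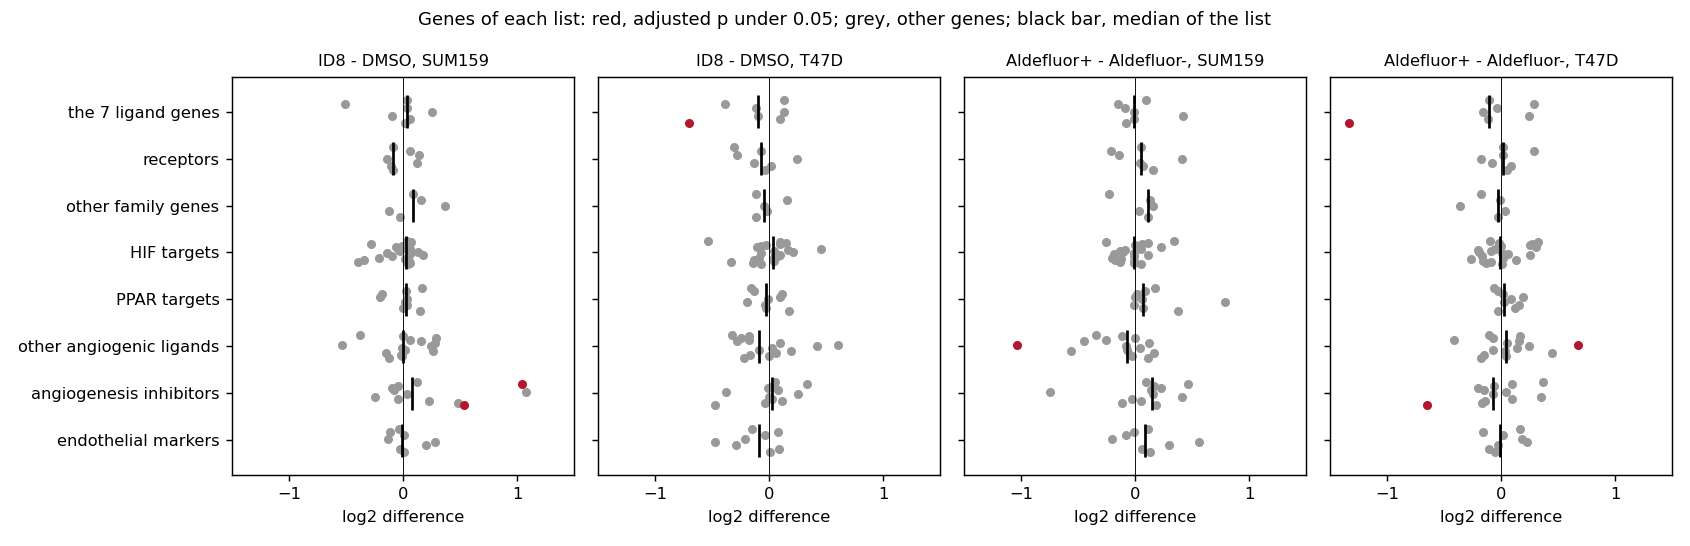
Log2 differences (horizontal axis) of the 7 ligands and the genes of the 7 lists (rows) in the 4 averaged comparisons (panels). Points are genes, red points had an adjusted p under 0.05, and black bars are medians of a list. The list medians lie between -0.11 and 0.15, and the red points are ANGPT1, EFNB2, THBS1 and ADAMTS1, with that of ANGPT1 for the T47D fractions shown as a description.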

How the data were processed

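Gene expression was measured on an Affymetrix Human Gene ST plate, from amplified total RNA of sorted cells. The authors deposited log2 signals made by RMA, robust multiarray averaging, per the labels' design text and the submitters' processing notes. The design text says that ComBat accounted for experimental and processing batch effects and that limma was run; it does not give the batches or covariates entered, and no versions are stated in the sources used. Of 53617 probe sets, 23871 name 1 gene in the platform annotation, 1842 several and 27904 none, which left 22395 genes with 1 probe set each, the one with the highest mean. Symbols were updated through RefSeq, GRCh38.p14.

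All 24 arrays were fitted with limma 3.58.1 in R 4.3.3, as 8 group means plus a block for the experiments of a line, for 16 comparisons. The Benjamini-Hochberg adjustment ran over all 22395 genes, and calls are genes with an adjusted p under 0.05. Errors are SE of this model unless named SD. Arrays carry no count depth, and their number limits the precision. The scripts were tested on simulated data.

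Per the labels a number is 1 separate experiment, so same-numbered arrays are paired. Deviations from group means correlated from -0.408 to -0.266 over 36 pairs of arrays of one experiment and from 0.0986 to 0.244 over 72 pairs of another experiment and group, signs that follow when batch means have been removed. P-values measure how much the group differences vary from experiment to experiment, after the experiment means are taken out. Each gene has 1 such spread, estimated over the arrays of both lines and moderated across genes by limma.

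The members, the 7 gene lists (receptors, other family genes, HIF targets, PPAR targets, other angiogenic ligands, inhibitors, endothelial markers) and the tests were chosen with earlier results of these data known. All members are named, list genes where called in any comparison or else the highest and lowest of a comparison, and the 3 genes most alike by Pearson's r. The alternatives were a fit without the block, without each experiment, without 1 array, within 1 line, other scalings, a filter at a mean of 2, other probe set rules and another variance model.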

Additional observations from a re-analysis of the deposited data

Results flagged for a closer look

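The difference between the fractions was itself different between the lines for EFNB2 and THBS1. For EFNB2, Aldefluor+ minus Aldefluor- was -1.04 in SUM159 and 0.67 in T47D, a difference of -1.71 ± 0.19 (limma adjusted p = 0.00026), which kept its call in all 14 alternatives. For THBS1 the values were 0.18 and -0.66, a difference of 0.84 ± 0.15 (limma adjusted p = 0.0128), with calls in 9 of 14 alternatives.

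The response to ID8 also differed between the lines for both genes. The averaged ID8 difference of EFNB2 was -0.54 in SUM159 and 0.60 in T47D, a difference of -1.14 ± 0.19 (limma adjusted p = 0.0093), called in 10 of 14 alternatives. That of THBS1 was 0.53 and -0.48, a difference of 1.01 ± 0.15 (limma adjusted p = 0.00445), called in 13 of 14.

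VEGFC with DMSO was lower in Aldefluor+ cells in every experiment of SUM159 and higher in every experiment of T47D, so that the fraction difference of SUM159 minus that of T47D was -0.88. The pattern was found by searching all the ligands, over several pairs of effects, for opposite signs in every experiment. Its share among all genes was not computed. The difference of -0.88 was not tested with DMSO alone. Averaged over the treatments it was -0.43 ± 0.21 and did not pass the threshold (limma adjusted p = 0.554).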

How the results depend on the processing

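Over 127 pairs of a gene and a comparison, 1472 values were recomputed, of which 1403 kept their direction and side of the threshold, 65 lost a call, 3 gained one and 1 turned. A direction was counted only where the reported difference exceeded its SE, and 80 values of any size changed sign. The value that turned was ANGPT1 for the fractions of SUM159 with ID8, at 0.0017 without replicate 3 against -0.21, and between -0.35 and 0.0017 over the replicates left out. With no replicate block, 1 of the 7 ligands was called for ID8 in SUM159 (VEGFC, limma adjusted p = 0.0498), 1 for ID8 in T47D Aldefluor+ cells (ANGPT1, 0.0144) and 1 for the ID8 effect between lines (ANGPT1, 0.029), against 0 each with the block; the block changed no other count of ligands. Such p-values may be too small, because a fit without the block does not count degrees of freedom that a removal of experiment means before deposit would have used. For ID8 in T47D, and for its fractions with DMSO, 0 ligands were called when only the 12 arrays of T47D were fitted or all probe sets were tested, against 1. With a replicate left out the called ligands ranged from 0 to 0 in these comparisons, and from 0 to 1 for the fraction difference between lines and for that of T47D with ID8. The counts for the fractions concern the ANGPT1 difference known when the genes were chosen, and no stability is read from them. Fewer arrays or more features tested is how those alternatives are built. Calls over all genes for ID8 in T47D were 113, with 562 without the block, 4 to 18 without a replicate, 60 within the line, 207 with the filter at a mean of 2 and 226 with the other variance model; for ID8 in SUM159 they were 154, 669, 45 to 53, 106, 327 and 298. For the fractions they were 196, 700, 48 to 68, 128, 321 and 323 in T47D. In SUM159 they were 49, with 250 without the block, 3 to 5 without a replicate, 28 without the DMSO Aldefluor+ array of experiment 4 and 84 with the other variance model. ANGPTL4 and PGF, and ANGPT1 in SUM159 with a mean of 1.98, lie in the range of low signal, where a missed call shows little.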
